A study of Rattus norvegicus with 10 samples.

Results

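Wnt7a encodes a secreted ligand of the Wnt family, and its RNA was followed in the lens capsules of 10 rats. The gene was taken by its symbol from a table of 3334 genes, where it had 1 entry. Each sample held the capsules of both eyes of 1 male 6-week-old Sprague-Dawley rat, and the 10 rats were split evenly into a Hypothermia Group and a Normal Group of 5. In the Hypothermia Group the isolated lenses were kept in Hibernate-A medium at 4°C for 8 h before the capsule was separated, while in the Normal Group the capsules were taken directly after death. The effects of cold, of the medium and of the time outside the eye cannot be told apart between these groups. The table held genes that the authors had selected for a difference between the groups, so Wnt7a was chosen for the difference described here and no test of that difference is given.

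WNT proteins are lipid-modified glycoproteins that bind Frizzled receptors and the co-receptors LRP5 and LRP6 on nearby cells. In one branch of the pathway this stabilizes β-catenin, which then acts with TCF/LEF factors on target genes, and in other branches it acts on cell polarity and the cytoskeleton. In the eye, WNT7A is best known from the epithelium of the cornea, and several Wnt ligands are made by the lens epithelium. The lens epithelial cells lie under the anterior capsule, and at the lens equator they become fibre cells, which make MIP (a water channel of the fibre membrane), LIM2 (a fibre cell junction protein) and BFSP1 (filensin, a subunit of the beaded filament).

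Over all listed genes the Hypothermia rats had 9026144 to 12415121 counts and the Normal rats 4792595 to 8177803. The counts were scaled by the authors' size factors, and a normalized count below is a count divided by that factor. These factors also separated the groups, with 0.744 to 0.980 in the Hypothermia Group and 1.08 to 1.26 in the Normal Group. Of 14 lens epithelial markers, 4 were listed (Pax6, Gja1, Pitx3 and Mab21l1), with a summed normalized count of 28693 to 32776 in the Hypothermia Group and of 33365 to 38923 in the Normal Group. Of these 4 genes, 2 were higher and 2 lower in the Hypothermia Group, with a median log2FoldChange of 0.004. The other 10 markers were not analysed here.

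Wnt7a lies on the minus strand of chromosome 4 of Rnor_6.0, from 122994425 to 123040609, and its length was given as 3150 bases of transcript. In the Hypothermia Group its normalized counts were 2422, 1495, 1961, 1091 and 3535 in rats 1 to 5. In the Normal Group they were 818, 163, 24.7, 80.0 and 297. Every rat of the Hypothermia Group lay above every rat of the Normal Group, as in 41.9% of the 3223 tested genes. The lowest Hypothermia value was 1.33 times the highest Normal value, which was that of Normal replicate 1. On the scale that corrects for gene length, the FPKM of Wnt7a was 40.1 ± 18.0 among the Hypothermia rats and 5.27 ± 6.09 among the Normal rats (mean ± SD, n = 5 each). Whether such a difference comes from more cells of a type or from more RNA per cell cannot be told apart in capsules sequenced whole.

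**Figure D1:**
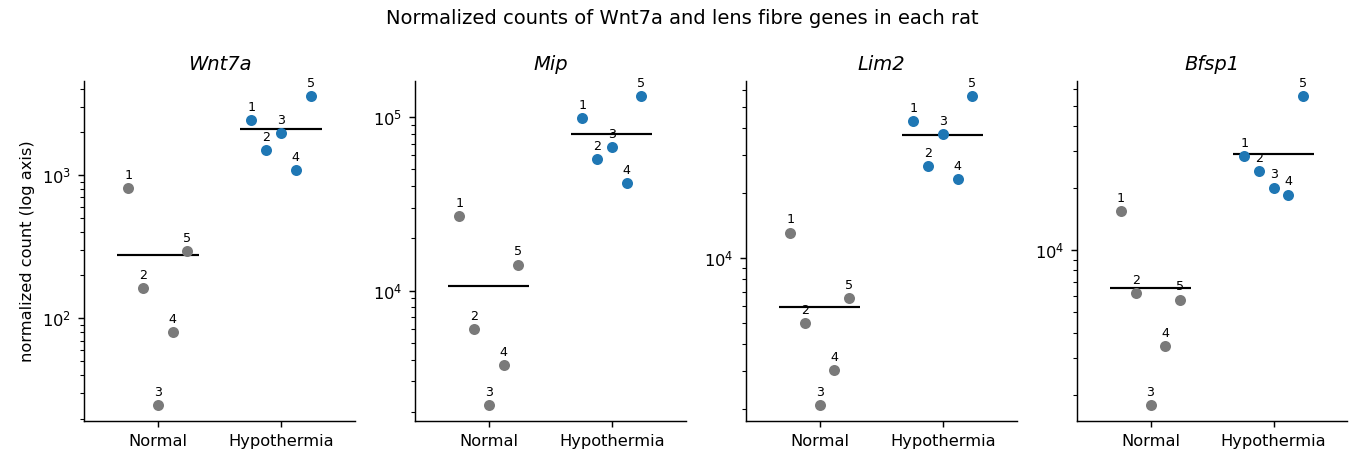
Normalized counts (log axes) of Wnt7a, Mip, Lim2 and Bfsp1 in each rat, with the replicate number beside each point and the arithmetic group mean as a line. Wnt7a ranged from 24.7 to 818 in the Normal Group and from 1091 to 3535 in the Hypothermia Group, and the rats stood in nearly the same order in all 4 panels.

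The group means differed by 2.93 on the log2 scale (standard error 0.76) in edgeR's fit, a 7.64-fold difference. The mean of the logarithms, which gives the low Normal rats more weight, differed by 3.67. Among the 3223 genes tested, 5 had a log2FoldChange larger than that of Wnt7a. Normal replicate 1 weighed most on this value, since without it the log2FoldChange was 3.91, a 15.0-fold difference.

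Wnt7a varied widely between rats of the same group. The highest Normal rat had 33.2 times the normalized count of the lowest, and the highest Hypothermia rat 3.24 times that of the lowest. The SD of log2 normalized counts was 1.89 in the Normal Group, against a median of 0.17 over 2981 genes whose mean normalized count reached 50. Only 9 of these genes had a larger SD there. The genes had been selected for a group difference, so this rank holds within that selection only. The SD in the Normal Group was also large for Mip (1.45), Lim2 (1.03) and Bfsp1 (1.15). In the Hypothermia Group the SD of Wnt7a was 0.65, and 3.39% of the genes had a larger one. Counting error was small beside this spread. The lowest raw count, 31 in Normal replicate 3, has a 95% exact Poisson interval from 21.1 to 44.0, and the next lowest was 100 in Normal replicate 4, with an interval from 81.4 to 122. These intervals cover counting error only.

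The fibre genes showed the same ranking of rats. Mip had normalized counts of 99089.5, 57302, 67312.5, 41506 and 131081 in Hypothermia rats 1 to 5. In Normal rats 1 to 5 Mip had 26749, 5996, 2179, 3733 and 14122. Hypothermia replicate 5 was the highest rat of its group and Hypothermia replicate 4 the lowest, and among the Normal rats replicate 1 was the highest and replicate 3 the lowest, for Mip as for Wnt7a. Lim2 had normalized counts of 42937, 26764, 37652.5, 23146 and 55981 in the Hypothermia rats. In the Normal rats Lim2 had 13158, 5006, 2088, 3034 and 6574. The order of the rats for Wnt7a, Mip and Lim2 was identical in both groups. Of the other 2980 genes of that level, 7 (0.235%) had this order, and among them were also Hsf4, a heat shock transcription factor of the lens fibre, and Ndrg1. Bfsp1 had 28362, 24101, 20086, 18578 and 55301 in the Hypothermia rats. In the Normal rats Bfsp1 had 15463, 6226, 1777, 3428 and 5776. Its order differed from that of Wnt7a only in that rats 2 and 3 changed places in the Hypothermia Group and rats 2 and 5 in the Normal Group.

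To follow the covariation without the difference between the groups, each rat's log2 normalized count was set against its group mean. Over the 10 rats these deviations of Wnt7a had a Pearson r of 0.979 with those of Mip and a Spearman rho of 0.988. The exact permutation test within groups, two-sided, gave p = 0.000208 for r (adjusted over the 3 genes, 0.000312) and p = 0.000486 for rho (adjusted, 0.000729), where 6.94e-05 is the smallest p that its 14400 arrangements allow. With Lim2 the r was 0.981 (exact permutation p = 0.000139, adjusted 0.000312) and the rho 0.976 (exact permutation p = 0.000347, adjusted 0.000729). With Bfsp1 the r was 0.948 (exact permutation p = 0.000972, adjusted 0.000972) and the rho 0.927 (exact permutation p = 0.00278, adjusted 0.00278). Wnt7a thus followed each fibre gene from rat to rat in both groups. The 3 relations are not separate evidence, because the fibre genes followed each other as closely, with an r of 0.982 between Mip and Lim2, of 0.925 between Mip and Bfsp1 and of 0.946 between Lim2 and Bfsp1.

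**Figure D2:**
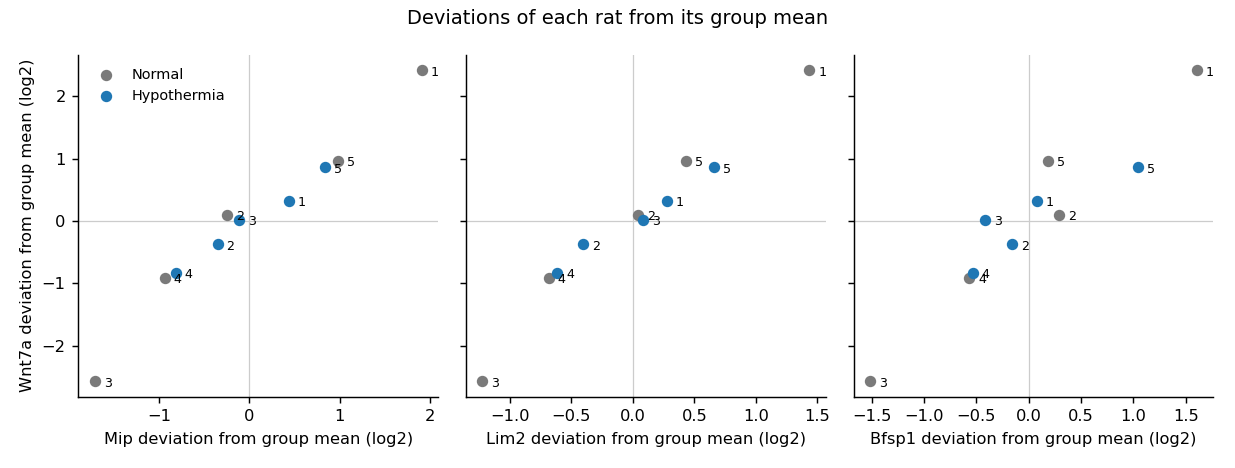
Deviation of each rat from its group mean (log2 normalized count) for Wnt7a on the vertical axis and for Mip, Lim2 and Bfsp1 on the horizontal axes, with replicate numbers. The points of both groups follow a rising line (r = 0.979, 0.981 and 0.948 over 10 rats), with Normal replicates 1 and 3 at its ends.

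Normal replicates 1 and 3 had the largest deviations of all 3 fibre genes. Without both of them, over 8 rats, the r was 0.984 with Mip (exact permutation p = 0.00278), 0.982 with Lim2 (exact permutation p = 0.00139) and 0.816 with Bfsp1 (exact permutation p = 0.0194). When instead Normal replicates 3 and 4, the rats farthest from the median level of each fibre gene, were left out, the r was 0.979, 0.985 and 0.875 in the same order (exact permutation p = 0.00278, 0.00139 and 0.0125). The relation therefore did not rest on these rats. Counts of 1 library share its scaling, and with listed-gene totals as the scaling the r was 0.960 with Mip, 0.970 with Lim2 and 0.902 with Bfsp1.

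A ratio of 2 counts from 1 library does not depend on the scaling at all. For each 1000 normalized counts of Mip, the Hypothermia rats 1 to 5 had 24.4, 26.1, 29.1, 26.3 and 27.0 counts of Wnt7a. The Normal rats had 30.6, 27.1, 11.3, 21.4 and 21.0. The groups overlapped, with means of 26.6 ± 1.70 (SD, n = 5) and 22.3 ± 7.33 (SD, n = 5), and the lowest value was that of Normal replicate 3. Normal replicate 1, which had the most Wnt7a of its group, had the highest ratio of all 10 rats. While Wnt7a itself differed by 33.2 times among the Normal rats, its ratio to Mip differed by 2.70 times there and by 1.19 times among the Hypothermia rats.

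The ratio to Lim2 also overlapped between the groups, with 47.1 to 63.1 counts of Wnt7a per 1000 of Lim2 in the Hypothermia Group and 11.8 to 62.1 in the Normal Group. The ratio to Bfsp1 did not overlap, with 58.7 to 97.6 against 13.9 to 52.9. Every Hypothermia rat thus had more Wnt7a for its Bfsp1 than every Normal rat, which was not so for Mip or Lim2. Wnt7a was chosen for its group difference, and the log2FoldChange of Bfsp1 (2.16) was smaller than that of Mip (2.91) or Lim2 (2.64). How many other genes had a ratio to Bfsp1 without overlap was not counted.

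**Figure D3:**
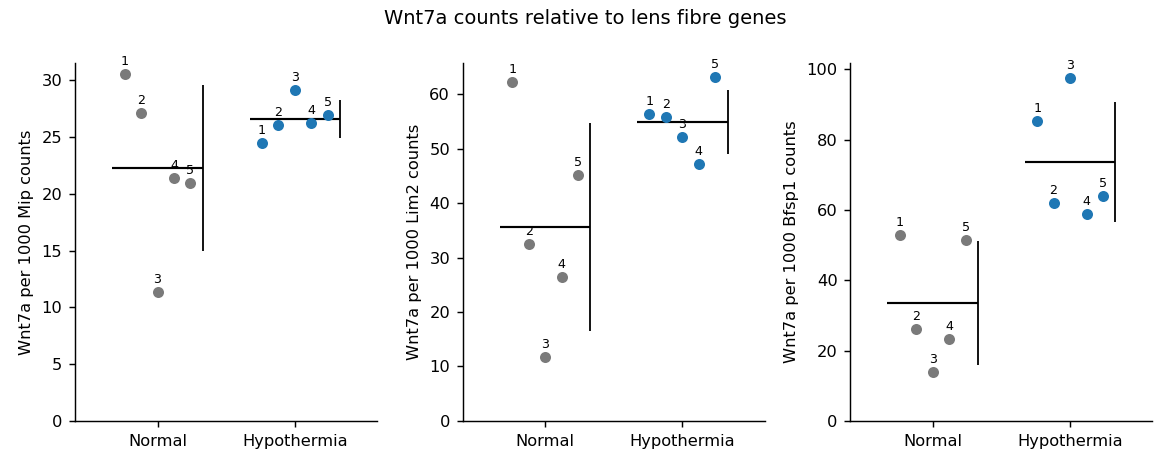
Counts of Wnt7a per 1000 normalized counts of Mip, Lim2 and Bfsp1 in each rat, with the replicate number, the group mean (line) and the SD (vertical bar), n = 5 per group. The groups overlap for Mip (11.3 to 30.6 against 24.4 to 29.1) and Lim2, and not for Bfsp1.

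The lens fibre list is a set of 25 genes that includes crystallins, membrane and beaded filament proteins, gap junction genes and Hsf4. Of these, 22 were listed and tested, all 22 were higher in the Hypothermia Group and 21 were called up-regulated (an adjusted p of edgeR's quasi-likelihood test under 0.05, and a log2FoldChange over 1), as were 10.4% of all tested genes. These genes had been selected on the same rats, so their direction is no separate evidence. Their median log2FoldChange was 2.16, and none exceeded that of Wnt7a. Their summed normalized counts were 5150850 to 11055700 in the Hypothermia Group and 746564 to 3628470 in the Normal Group. The deviations of the 22 genes had a median r of 0.925 with those of Wnt7a, from 0.802 for Tmod1, an actin-capping protein, to 0.982 for Hsf4. Over all 2980 genes the median r was 0.31, and 67 genes (2.25%) had an r above 0.9, of which 15 belonged to the fibre list. The fibre genes thus moved with Wnt7a from rat to rat, and their part in the difference of Wnt7a was not tested. The log2 normalized count of Wnt7a minus the mean of the 22 genes ran from -5.04 to -4.35 in the Hypothermia rats and from -6.99 to -4.86 in the Normal rats, where Normal replicate 3 was the lowest and Normal replicate 1 lay within the Hypothermia range. Its mean was higher by 1.29 in the Hypothermia Group, and by 0.79 when only Mip, Lim2 and Bfsp1 were used. Counts are not corrected for length here, so the distance itself is no measure of molar levels.

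The lens epithelial genes did not share this pattern. Their r with Wnt7a ran from -0.42 for Gja1 (a gap junction connexin) to 0.31 for Mab21l1. Pax6, the transcription factor of eye development that acts with WNT7A in the corneal epithelium, had a normalized count of 5796 ± 302 among the Hypothermia rats and 6918 ± 109 among the Normal rats (mean ± SD, n = 5 each), and an r of -0.22. The log2FoldChange of Pax6 was -0.26, and its edgeR adjusted p of 0.04997 lay at the threshold. Of 10 markers of the corneal and conjunctival epithelium only Krt15 was listed, with 0 to 8.06 normalized counts in the Hypothermia Group and 4.09 to 53.3 in the Normal Group. Its r with Wnt7a was -0.27. Markers of other tissues around the lens had lower or overlapping sums in the Hypothermia Group, except for the glia and nerve list. Listed were 5 genes of the pigment epithelium, iris and ciliary body, with summed normalized counts of 66.3 to 344 against 220 to 1509, and 3 matrix genes (Col1a1, Fn1 and Fbn1), with 935 to 4911 against 2034 to 30336. In these 2 lists the r with Wnt7a ran from 0.04 (Rpe65) to 0.71 (Pmel) and from -0.57 (Col1a1) to 0.51 (Fbn1). The retina list had 3 listed genes, at 3266 to 5799 against 5173 to 9672, with r from -0.04 (Rlbp1) to 0.76 (Prkca), and the muscle and the endothelium and blood lists 1 gene each, Tagln and Vwf. Ngfr, the 1 listed gene of the glia and nerve list, was higher, with 1155 to 2482 against 322 to 607 and an r of 0.57. None of the 7 immune markers was listed. The part of these tissues in the value of Wnt7a was not tested.

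**Figure D4:**
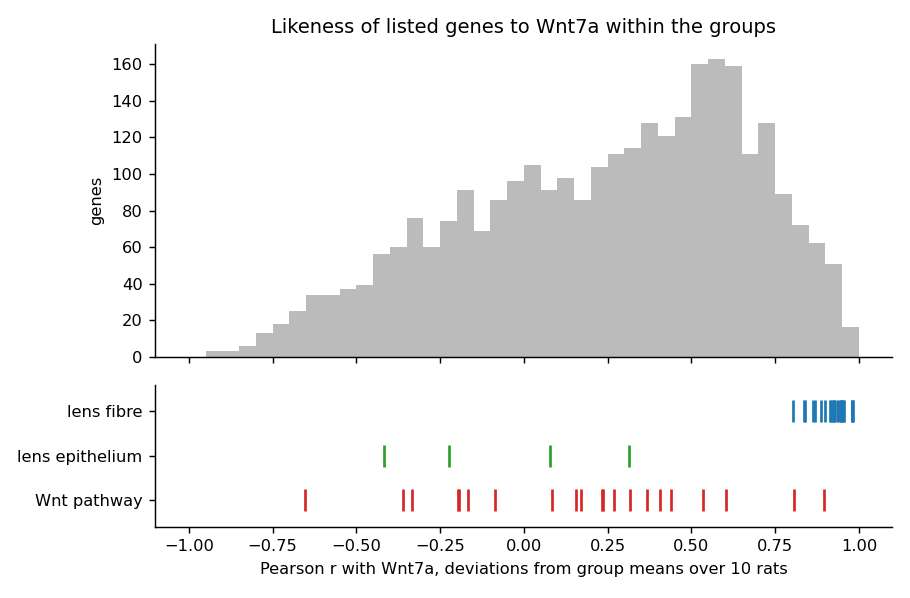
Distribution of Pearson r between Wnt7a and 2980 listed genes, from deviations from group means over 10 rats (upper panel, number of genes), and the r of each gene of the lens fibre, lens epithelium and Wnt pathway lists (lower panel, 1 tick per gene). The fibre genes lie between 0.802 and 0.982, the epithelial genes between -0.42 and 0.31.

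The genes most like Wnt7a by this measure were Lctl (r = 0.986), Hsf4 (0.982), Lim2 (0.981), Mypn (0.980), Mip (0.979), Palm2 (0.969), Myrip (0.967) and Gpd1 (0.967), each over 10 rats. All 8 were chosen as the highest of 2980, so no test is given. Lctl, a lactase-like membrane protein of the lens fibre, had a normalized count of 4470 to 12097 in the Hypothermia Group and of 348 to 4067 in the Normal Group, and Mypn, which encodes the sarcomere protein myopalladin, had 447 to 857 against 59.7 to 373. Gpd1, a cytosolic glycerol-3-phosphate dehydrogenase, had 1062 to 1677 against 197 to 655. The 8 genes lie on chromosomes 1, 5, 7, 8, 19 and 20, and none on chromosome 4. The lowest r were those of Vars2 (-0.93), Klf11 (-0.91) and Zkscan8 (-0.90), which were lower in the Hypothermia Group by 0.27, 0.42 and 0.32 on the log2 scale.

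Within 1 Mb of Wnt7a on chromosome 4, 5 other genes were listed, of which Lsm3 was higher in the Hypothermia Group and the other 4 had negative log2FoldChanges. Fbln2, a matrix protein, ends 99.3 kb from Wnt7a and had a log2FoldChange of -2.68 ± 0.91 (SE) with an edgeR adjusted p of 0.0843, and its r with Wnt7a was 0.54. Lsm3, an RNA processing protein 121 kb away on the other side, had one of 0.55 ± 0.10 (SE) with an edgeR adjusted p of 0.00625, and an r of -0.29. Klf15, Nup210 and Nr2c2 had log2FoldChanges of -0.53, -0.31 and -0.28. Their r with Wnt7a were -0.41, -0.74 and -0.39.

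Because Wnt7a moved with Mip, Lim2 and Bfsp1, the 250 bases before each gene start are shown for all 4 genes. They were taken from RefSeq on GRCr8, a later build than the Rnor_6.0 of the counts, so their coordinates cannot be set beside those above. Capitals mark, on either strand, CTTTG (the core of TCF/LEF sites), TGCTGA (a MAF half-site) and GAANNTTC (a pair of heat shock units). A match on the other strand shows as its reverse complement. The windows are chr4:125466150-125466399 on the minus strand for Wnt7a, chr7:1231655-1231904 on the plus strand for Mip, chr1:102973938-102974187 on the plus strand for Lim2 and chr3:151682838-151683087 on the minus strand for Bfsp1.
Wnt7a: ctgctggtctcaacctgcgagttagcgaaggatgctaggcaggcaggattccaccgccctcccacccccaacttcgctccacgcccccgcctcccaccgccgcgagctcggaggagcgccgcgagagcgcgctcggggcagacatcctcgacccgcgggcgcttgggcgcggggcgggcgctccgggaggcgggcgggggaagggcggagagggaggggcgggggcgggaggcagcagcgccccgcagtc
Mip: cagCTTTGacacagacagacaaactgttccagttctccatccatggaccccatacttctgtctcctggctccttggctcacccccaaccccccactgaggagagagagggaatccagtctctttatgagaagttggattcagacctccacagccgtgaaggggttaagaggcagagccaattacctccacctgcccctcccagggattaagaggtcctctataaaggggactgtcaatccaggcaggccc
Lim2: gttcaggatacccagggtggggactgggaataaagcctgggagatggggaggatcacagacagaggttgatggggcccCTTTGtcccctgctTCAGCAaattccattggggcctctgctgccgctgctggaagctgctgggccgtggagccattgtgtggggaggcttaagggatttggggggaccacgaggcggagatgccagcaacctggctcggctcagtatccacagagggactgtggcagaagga
Bfsp1: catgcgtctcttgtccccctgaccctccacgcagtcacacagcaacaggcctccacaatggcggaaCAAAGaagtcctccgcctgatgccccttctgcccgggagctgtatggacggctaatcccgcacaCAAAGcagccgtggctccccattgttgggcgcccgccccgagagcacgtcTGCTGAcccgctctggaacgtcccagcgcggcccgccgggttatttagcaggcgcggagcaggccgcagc
Of 33469 promoter windows of this length, 48.2% held CTTTG, 15.1% TGCTGA and 7.23% GAANNTTC. The window of Mip held CTTTG once and that of Lim2 once, while that of Bfsp1 held it 2 times. TGCTGA occurred in those of Lim2 and Bfsp1. No marked stretch overlapped another. The window of Wnt7a held none of these letters, and GAANNTTC was in none of the 4. The Wnt7a window also differed in composition, with 76.0% G and C and 32 CpG pairs, where the median window had 51.2% and 5 pairs. Mip had 54.4% and 1 pair, Lim2 60.4% and 5 pairs, and Bfsp1 65.6% and 21 pairs. These matches are letters in a window and no sites of binding.

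Of 105 other genes of the Wnt pathway, 22 were listed and tested, and the other 83 were not analysed here. With the authors' size factors 11 of the 22 were higher and 11 lower in the Hypothermia Group, with a median log2FoldChange of -0.01, where the median of all tested genes was 0.36. Adjusted p-values are from edgeR's quasi-likelihood test over 17000 genes. All listed genes had been selected by the authors for a group difference in these same rats. The adjusted p-values and calls of listed genes, above and below, are therefore a description and no separate evidence. With the same limits, 5 genes were up-regulated (Wnt5b, Nkd2, Rspo1, Cd44 and Prickle1) and 1, Ccnd1, was down-regulated. That is 22.7% and 4.55% of the 22 genes, where 10.4% and 1.99% of all tested genes were. The groups did not overlap for 7 higher and 3 lower genes of the 22, where 41.9% and 16.8% of all tested genes were without overlap. With a log2 limit of 0.25 in place of 1, 8 of the 22 were called higher and 8 lower, where 52.6% and 20.8% of all tested genes were. With TMM factors, which moved the median gene down by 0.29, 2 genes were up-regulated (Wnt5b and Rspo1) and 2 down-regulated (Ccnd1 and Tcf7), where 5.77% and 6.36% of all tested genes were. The 16 genes with an adjusted p under 0.05 in edgeR were the 8 higher and 8 lower ones called at the log2 limit of 0.25. Of these 16, 12 also had an adjusted p under 0.05 with TMM factors. When 1 rat was left out, between 5 (without Normal replicate 4) and 15 (without Normal replicate 1) did. The share of all tested genes that kept one in the alternative fits is not given here.

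**Figure D5:**
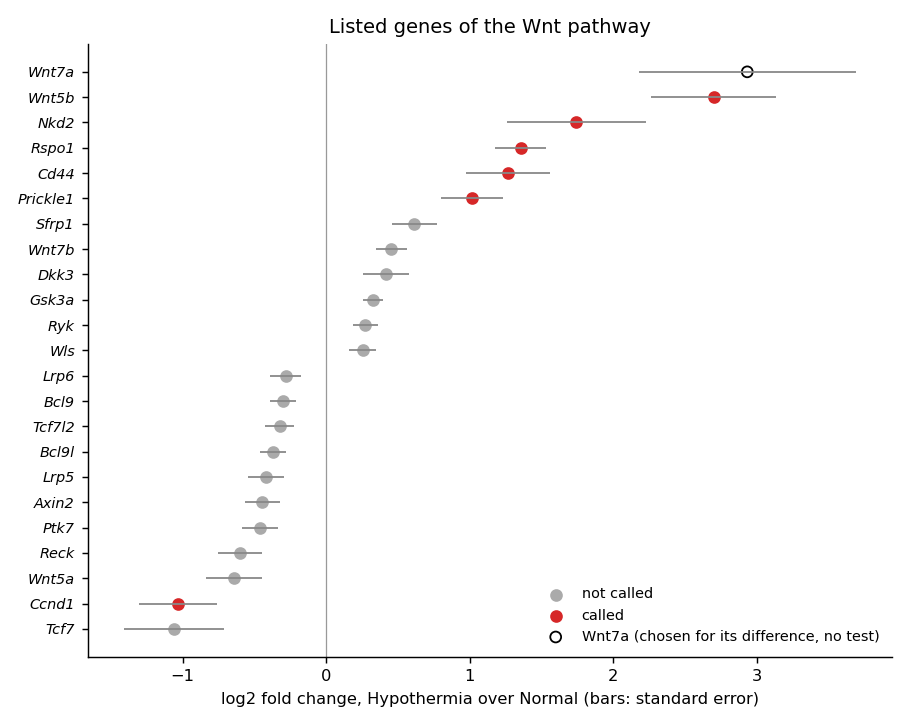
log2FoldChange (Hypothermia over Normal, edgeR with the authors' size factors) of Wnt7a and 22 other listed genes of the Wnt pathway, with standard errors as bars. Red points were called at the limits in the text, and Wnt7a (open circle, 2.93) has the largest value, followed by Wnt5b (2.70).

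Among the ligands, Wnt5b, which mostly acts without β-catenin, was the pathway gene most like Wnt7a. Its normalized count was 641 ± 197 among the Hypothermia rats and 99.4 ± 75.0 among the Normal rats (mean ± SD, n = 5 each), without overlap, a log2FoldChange of 2.70 ± 0.44 (SE) with an edgeR adjusted p of 0.00576. Its r with Wnt7a was 0.897, the highest of the 21 pathway genes whose mean normalized count reached 50, and it was called with any 1 of the 10 rats left out. Wnt7b, the closest relative of Wnt7a, had the higher level, with an FPKM of 136 to 184 in the Hypothermia Group and of 109 to 127 in the Normal Group. Per length, the level of Wnt7b was 2.72 to 6.52 times that of Wnt7a in the Hypothermia rats and 8.14 to 265 times in the Normal rats. The log2FoldChange of Wnt7b was 0.45 ± 0.11 (SE) with an edgeR adjusted p of 0.0163, but with TMM factors the values were 0.16 and 0.596, and with listed-gene totals the fold change was negative. Its r with Wnt7a was 0.32. Whether reads were shared between these related genes was not tested. Wnt5a was lower, at 237 ± 38.3 (SD, n = 5) against 370 ± 106 (SD, n = 5) normalized counts (log2FoldChange -0.64, adjusted p = 0.0479 from edgeR). With 1 rat left out, its adjusted p stayed under 0.05 in 2 of 10 fits. Of the summed FPKM of the 4 listed ligands, Wnt7a made up 12.3% to 24.98% in the Hypothermia rats and 0.364% to 10.3% in the Normal rats.

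Wls, which carries Wnt ligands to the cell surface, had a normalized count of 11326 ± 555 (SD, n = 5) against 9501 ± 848 (SD, n = 5) in the Normal Group and an adjusted p of 0.120 from edgeR. Its log2FoldChange of 0.25 was negative with TMM, median-of-ratios and upper-quartile factors and with listed-gene totals, as was that of Ryk (0.27). Among the receptors, Reck, part of a receptor complex for Wnt7 ligands, was lower at 376 ± 65.0 (SD, n = 5) against 571 ± 118 (SD, n = 5), with an adjusted p of 0.0239 from edgeR and a log2FoldChange of -0.60. The co-receptor Lrp5 and Ptk7, a kinase-like receptor without kinase activity, were lower as well, with log2FoldChanges of -0.42 and -0.46 and adjusted p-values of 0.0417 and 0.0316 (edgeR). With 1 rat left out, the adjusted p of Reck stayed under 0.05 in 6 of 10 fits, that of Ptk7 in 4 and that of Lrp5 in 2. The co-receptor Lrp6 and Ryk, a Wnt receptor, did not pass, with adjusted p-values of 0.123 and 0.0541 (edgeR). No Frizzled gene was among the listed genes. Receptors had r with Wnt7a between -0.19 (Ptk7) and 0.60 (Ryk).

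Rspo1, a secreted enhancer of Wnt signals, rose from 771 ± 166 (SD, n = 5) to 1973 ± 429 (SD, n = 5) normalized counts (log2FoldChange 1.35, standard error 0.18, adjusted p = 0.00455 from edgeR), without overlap. It was called with any 1 rat left out, but not with listed-gene totals, where its log2FoldChange was 0.10. Its r with Wnt7a was 0.44. Of the secreted inhibitors, Sfrp1, which binds Wnt ligands, had a log2FoldChange of 0.62 (adjusted p = 0.0217 from edgeR) and Dkk3 one of 0.42 (adjusted p = 0.131 from edgeR). Sfrp1 passed in 6 of 10 fits with 1 rat left out, and with TMM factors its log2FoldChange was 0.31 (adjusted p = 0.232 from edgeR). With listed-gene totals both were negative.

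In the cytoplasm, Nkd2, an inhibitor that binds Dishevelled, rose from 72.5 ± 48.4 (SD, n = 5) to 242 ± 144 (SD, n = 5) normalized counts (log2FoldChange 1.74, adjusted p = 0.0372 from edgeR), with an r of 0.81 with Wnt7a. Leaving out 1 rat kept its call in 2 of 10 cases, and its log2FoldChange then ran from 1.31 to 2.18. Axin2, a scaffold of the β-catenin destruction complex whose own RNA is a common readout of that branch, was lower at 275 ± 42.1 (SD, n = 5) against 375 ± 44.7 (SD, n = 5), with a log2FoldChange of -0.45 (adjusted p = 0.0300 from edgeR) and an r of -0.09 with Wnt7a. It passed in 5 of 10 fits with 1 rat left out. Gsk3a, a kinase of the same complex, had a log2FoldChange of 0.33 (adjusted p = 0.00961 from edgeR), which was 0.03 with TMM factors and negative with upper-quartile factors and with listed-gene totals. The 4 listed nuclear genes, Tcf7, Tcf7l2, Bcl9 and Bcl9l, were all lower, with log2FoldChanges from -1.06 to -0.30, and Bcl9 and Bcl9l, co-activators of β-catenin, passed with edgeR adjusted p-values of 0.0470 and 0.0203. With 1 rat left out they passed in 2 and 7 of 10 fits. Those of Tcf7 and Tcf7l2 were 0.0676 and 0.0556 (edgeR).

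Of 9 common targets, 3 were listed. Besides Axin2, Ccnd1 (cyclin D1) was lower, at 429 ± 165 (SD, n = 5) against 876 ± 218 (SD, n = 5) normalized counts, and Cd44, a hyaluronan receptor, was higher at 1499 ± 632 (SD, n = 5) against 623 ± 176 (SD, n = 5). Their adjusted p-values were 0.0289 and 0.0177 (edgeR). With 1 rat left out, Ccnd1 was called in 4 of 10 cases (log2FoldChange from -1.20 to -0.89) and Cd44 in 9, all but the one without Normal replicate 4. Prickle1, of the planar polarity branch, had 1171 ± 220 (SD, n = 5) against 578 ± 199 (SD, n = 5), an adjusted p of 0.0117 from edgeR, and a log2FoldChange of 1.02, close to the limit of 1 and negative with listed-gene totals. With 1 rat left out that value ran from 0.89 to 1.22, and it was called in 6 of 10 cases.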

How the data were processed

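RNA was extracted with TRIzol from samples with a RIN of at least 5.8 and sequenced as paired-end reads. Per the labels and the study's methods, HISAT2 2.0.5 (on Rnor_6.0) and featureCounts 1.5.0-p3 were the tools of the authors, and the deposited counts are whole reads without normalization. The annotation release is not given in the sources used here. The deposited FPKM values correct these counts for gene length, and between rats they are scaled as the normalized counts are. For Wnt7a, Mip, Lim2 and Bfsp1 the ratio of the group means was the same on both scales (7.60 for Wnt7a). The FPKM is therefore no separate measure of a difference between rats. The signal in 2 further columns is the authors' mean normalized count per group from DESeq2 1.16.1, and a least-squares solution of it for the size factors had a relative error of at most 9.2e-10. The log2 fold changes with their p-values that the authors deposited are the authors' own comparison and were not used.

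The table is a list of changed genes, so a scaling that assumes unchanged genes and an adjustment over listed genes do not suit it. The counts of all 10 samples went into 1 robust quasi-likelihood fit of edgeR 4.0.16 (R 4.3.3) after filterByExpr, with the group alone as factor, and p-values were adjusted by Benjamini-Hochberg over 17000 genes, a round value for the genes expressed. A standard error is the size of the log2 fold change over √F. The fit was tested on simulated data. Logarithms used a pseudocount of 1. The members and lists were chosen with earlier results of these data known. Named were Wnt7a, the fibre genes Mip, Lim2 and Bfsp1, Pax6, every listed Wnt pathway gene, the 8 genes most like Wnt7a, listed genes within 1 Mb, and marker lists by count. Genes outside the rule were named as examples of a list or an order. Promoter windows are from RefSeq on GRCr8, found for 4 of 5 genes looked up (not for Wnt5b). Alternatives were other scalings, DESeq2 1.42.0, no filter, a fit that is not robust, a replicate block, each rat left out, other measures and pseudocounts, another adjustment and a lower log2 limit. Leaving out the 2 rats with the largest fibre gene deviations was chosen after seeing the data. The rats are separate animals. Figures were drawn with matplotlib 3.10.9.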

Additional observations from a re-analysis of the deposited data

Results flagged for a closer look

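For 60 sets of 5 rats (the named genes and ratios in each group), the gap between the highest or lowest rat and its neighbour was divided by the range of the set. It exceeded the 95% critical value of Dixon's test, 0.71, in 4 sets, where chance gives about 1 in 20. Hypothermia replicate 5 stood apart as the highest of its group for Bfsp1 (55301 normalized counts, next 28362, gap over range 0.734), for Nkd2 (497, next 207, gap over range 0.842) and for Prickle1 (1558, next 1131, gap over range 0.814). Hypothermia replicate 3 stood apart as the lowest for Tcf7l2 (158, next 181, gap over range 0.717). Wnt7a itself was not among them in either group.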

How the results depend on the processing

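The log2 difference of Wnt7a over 20 alternatives ran from 1.91 with listed-gene totals (which moved the median of all genes by -1.23) to 3.91 without Normal replicate 1. Over the 10 fits that left out 1 rat it was at least 2.63. Wnt7a was chosen for this difference and its groups did not overlap, so leaving out 1 rat could not turn its sign. The alternative on FPKM shares the scaling of the main fit. The value of Wnt7a relative to the fibre genes ranged from 0.79 to 1.54 under all alternatives. When 1 rat was left out it ranged from 1.01 to 1.54. The r with Mip, Lim2 and Bfsp1 ranged from 0.963 to 0.987, from 0.964 to 0.990 and from 0.903 to 0.966 when 1 rat was left out. The counts of called Wnt pathway genes depended on the processing. Against 5 higher and 1 lower, there were 2 higher and 2 lower with TMM factors, with median-of-ratios factors and with upper-quartile factors, 1 higher and 11 lower with listed-gene totals, 2 lower with DESeq2 and with adjustment over the tested genes, and 8 higher and 8 lower with a log2 limit of 0.25. Of all tested genes, 5.68% were called higher and 6.79% lower with median-of-ratios factors, 5.18% and 7.17% with upper-quartile factors and 1.15% and 36.2% with listed-gene totals, while 4.89% were called lower with DESeq2 and 4.56% with adjustment over the tested genes. Leaving out 1 rat gave between 2 (without Normal replicate 4) and 5 higher genes, with 3 without Hypothermia replicate 5, Normal replicate 3 or Normal replicate 5, and between 0 and 1 lower genes, with 0 without Hypothermia replicate 2 or 4 or Normal replicate 2, 4 or 5. Over all tested genes, 6.27% (without Normal replicate 4) to 12.1% (without Normal replicate 1) were called higher when 1 rat was left out. Lower calls then ran from 0.803% (without Normal replicate 4 or 5) to 2.44% (without Normal replicate 3). The sign of Wls and Ryk turned with TMM, median-of-ratios and upper-quartile factors, and listed-gene totals turned 7 of the 22 genes. The causes were not tested. Equal replicate numbers mark different animals, and the deviations of same-numbered rats correlated between -0.16 and 0.22, above 0.1 for 1 of 5 pairs. With the replicate block the log2 difference of Wnt7a was 3.53, the lower genes called were 0 (0.683% of all tested genes), 6 of the 16 pathway genes with an adjusted p under 0.05 still had one, and the r with Bfsp1 was 0.867 (exact permutation p = 0.0583), no longer under 0.05. Only listed genes were analysed, and each library's full depth is unknown.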
